A study of Macaca mulatta with 24 samples.

Results

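Transcripts in the whole blood of rhesus macaques were compared between day 3 after a total body dose of 4 Gy and the time before irradiation. The 11 arrays compared, of 24 in the series, were the 4 whose titles give day 3 (replicates 1, 2, 4 and 7) and the 7 whose titles give pre-irradiation (replicates 1 to 7), and the description runs across all genes that could be tested. All animals were Macaca mulatta, of Chinese origin per the study's methods. The pre-irradiation group had received 0 Gy and was sampled at day 0 per the labels (4 males and 3 females), and the day 3 group had received 4 Gy (3 males and 1 female). The labels call the radiation X-rays, whereas the methods describe gamma rays from a cobalt source and a pre-irradiation sample drawn some days earlier. No sham-irradiated animals are among these arrays, so the time since the first sample and the radiation cannot be told apart. RNA was taken from PAXgene blood, in which all blood cells are lysed together, and globin transcripts had been depleted with a kit made for human globins. Each sample was hybridised in 1 colour (Cy3) to an Agilent rhesus 4x44K array of probes of 60 bases.

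Ionising radiation breaks both strands of DNA, and the kinase ATM then stabilises the transcription factor p53, which raises transcription of genes that halt the cell cycle, repair DNA or trigger cell death. Lymphocytes, B cells above all, are among the most radiosensitive cells of the body, whereas circulating neutrophils and platelets do not divide and are lost as their precursors in the marrow fail. Reticulocytes, the young red cells that still carry RNA, leave the marrow continuously and lose that RNA within days. In whole blood, fewer cells of a type and less RNA per cell cannot be told apart, and neither can more cells and more RNA per cell.

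Values are log2 of the processed signal of each probe, shifted so that the arrays share a common median, and a change is the day 3 mean minus the pre-irradiation mean on that scale. Each change is therefore relative to the other transcripts on the array. A rise of a transcript and a fall of others cannot be told apart on this scale, and absolute amounts were not measured. A probe was tested if it was well above background, by the scanner software's own test, on at least 4 of the 24 arrays. It was called when limma's Benjamini-Hochberg adjusted p over all tested probes was under 0.005, and a gene was read from its brightest tested probe, except that the largest changes of single probes were ranked by probe. For 7 genes of the results below, the first 30 of the 60 bases of the probe that read each are given to show which stretch of the transcript was measured. Positions are those of the whole probe in the array's annotation, build rheMac2, which does not say whether they lie in coding or untranslated exons. EDA2R was read at chrX:65480691-65480750, CDKN1A at chr4:36447567-36447626, GP1BA at chr16:4734245-4734304, PPBP at chr5:55664003-55664062, MS4A1 at chr14:13596622-13596681, KLF1 at chr19:12551475-12551534 and RPS21 at chr10:2139065-2139124. The probes for CDKN1A, GP1BA and PPBP lie on the plus strand and the others on the minus strand.
EDA2R: accgaaagcactggagacagactggagctc
CDKN1A: aacaccttccagctcctgtatcatactggc
GP1BA: ttttgcttttctccatgggaacccctggtt
PPBP: aattgtacagaaaaaattggcaggtgatga
MS4A1: gagactgcacctgatggtaaagatatatga
KLF1: gcttcccagagaccctgggtctagaaaggg
RPS21: cttttgactggagagaatcatggaagtgga

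Before the results, a property of the arrays has to be stated. The arrays were scanned in 2 sessions on 6 slides: 6 of the 7 pre-irradiation arrays were in the first session, and all 4 day 3 arrays were in the second, together with pre-irradiation replicate 5. The spots for the E1A spike-in, RNA added to each sample during labelling, averaged log2 18.96 to 19.26 on the day 3 arrays and 17.41 to 17.82 on the pre-irradiation arrays other than replicate 1, which read 8.20. Pre-irradiation replicate 5 read 17.53 although it was on the same slide as day 3 replicates 4 and 7. After the arrays were brought to a common median, the day 3 spike-in values ran from 18.98 to 19.93 and no pre-irradiation value exceeded 18.39. The part of this difference in the results was not tested. Between 53.9% and 57.6% of probes were well above background at day 3, against 49.6% to 53.1% before irradiation. With the session as a block, limma called 37 probes in these groups, and with the slide as a block it called 0 probes, where 5409 had an unadjusted p under 0.05. In both fits the contrast rests on pre-irradiation replicate 5 alone, so the median of each list below is also given against that array. It shares the session of the day 3 arrays but not their spike-in level. The medians against it therefore cannot separate day 3 from the spike-in difference, and they rest on 1 array. Replicate numbers mark animals, and the 4 animals measured at both times allow a fit with the animal as a fixed block, which called 751 probes and is the fit meant below by the animal as a block. As a random block, which keeps all 11 arrays, the animal gave 4734 called probes, against 3651 without a block. The p-values measure the spread between animals, 4 of which enter both groups. Whole-blood markers of leukocytes were well above background on every array used, and no CD3E probe was on the array.

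**Figure D1:**
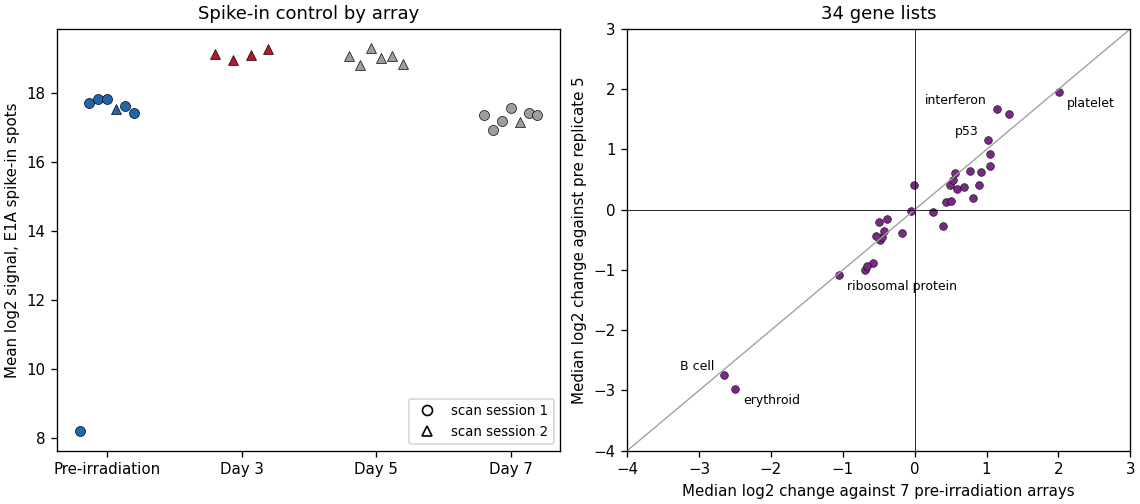
Left, mean log2 signal of the E1A spike-in spots on each array by group, with circles for scan session 1 and triangles for session 2; the 4 day 3 arrays lie between 18.96 and 19.26, and pre-irradiation replicate 1 lies at 8.20. Right, the median log2 change of each of the 34 gene lists against all 7 pre-irradiation arrays (x axis) and against pre-irradiation replicate 5 alone, the array of the same session (y axis); each point is a list, and the diagonal marks equal values.

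The blood transcriptome differed widely between the times. Of 27132 probes tested, 1474 rose and 2177 fell, which is 13.5% in all (5.43% higher and 8.02% lower). With normexp background correction 165 were called, and without the filter on dim probes 1792 rose and 961 fell, which turns the balance. Read by gene, 1473 of 10882 were called (13.5%), with 648 higher (5.95%) and 825 lower (7.58%). At an unadjusted p under 0.05, 2410 of the 10882 genes were higher and 2696 lower. The counts of the lists at that p, given below, are to be read against these. The median change over all genes tested was -0.0041 log2 units, which follows largely from the shift to a common median, and the median absolute change of the called genes was 1.41. Changes over 4-fold were found in 385 called genes, 155 of them higher and 230 lower. Of the called genes, 72 were well above background on no pre-irradiation array and 74 on no day 3 array. All 4 day 3 arrays lay above all 7 pre-irradiation arrays in 8.66% of probes and 9.1% of genes, and below them in 12.3% of probes and 12.1% of genes. With the animal as a block, 368 genes were called (3.38%), 162 higher (1.49%) and 206 lower (1.89%). The count of 3651 probes fell to 2336 without pre-irradiation replicate 2, 2397 without pre-irradiation replicate 3, 2015 without day 3 replicate 1 and 1496 without day 3 replicate 4.

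**Figure D2:**
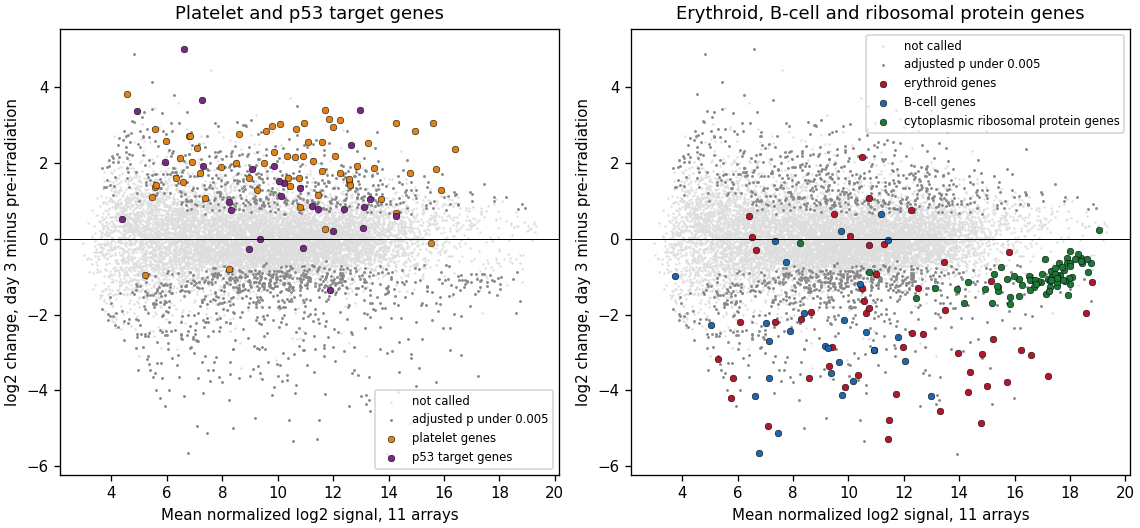
Log2 change between day 3 and pre-irradiation (y axis) against the mean normalized log2 signal over the 11 arrays (x axis); each point is a tested gene, and colours mark the gene lists named in each panel. Platelet and p53 target genes lie mostly above 0, and erythroid, B-cell and ribosomal protein genes mostly below.

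Part of the p53 target genes rose at day 3. EDA2R, a death receptor of the TNF receptor family induced by p53, had log2 signals of 9.24, 10.53, 9.81 and 9.60 in day 3 replicates 1, 2, 4 and 7. Before irradiation it ran from 3.23 to 5.93 (median 4.90), and it was well above background on 1 of those 7 arrays. The lowest day 3 array was thus far above the highest pre-irradiation array, and the rise was 5.01 ± 0.44 log2 units (SE; adjusted p = 2.69e-05 by limma), a difference that rests on signals mostly not well above background before irradiation. CDKN1A, which encodes the cyclin-dependent kinase inhibitor p21, read 15.26, 15.14, 15.31 and 14.86 at day 3 against 11.31 to 12.19 (median 11.76) before. Its day 3 values lay close together, and the rise was 3.40 ± 0.18 (adjusted p = 2.62e-06 by limma). PHLDA3, an inhibitor of AKT signalling, read 9.67, 9.92, 9.05 and 9.73 against 4.79 to 6.47 (median 6.12) and rose by 3.66 ± 0.32. MDM2, the ubiquitin ligase that degrades p53, rose by 1.54 ± 0.25, and FAS, a death receptor, by 1.48 ± 0.25.

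In all, 28 of the 40 listed p53 target genes were tested, of which 13 rose and 15 were not called, where 5.95% of all genes rose. The median change over the 28 was 1.03, and the single-array medians relative to the pre-irradiation mean were 1.26, 1.01, 0.97 and 1.20 in day 3 replicates 1, 2, 4 and 7, against -0.16 to 0.16 before irradiation. Against pre-irradiation replicate 5 the median was 1.16. BAX, a pro-apoptotic p53 target, differed by 0.78 ± 0.21 without passing (adjusted p = 0.0128 by limma), and its other probe by 1.29. PCNA, the sliding clamp of DNA replication, differed by 0.84 ± 0.19 and also missed the threshold (adjusted p = 0.00524 by limma). The count of 13 fell to 8 without day 3 replicate 4, to 6 with the animal as a block and to 3 with the session as a block.

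Of 33 genes tested that sense and repair double-strand breaks, 1 rose (3.03%) and 2 fell (6.06%), shares near those of all genes (5.95% and 7.58%). The median was -0.17, but -0.39 against pre-irradiation replicate 5, -0.27 and -0.29 without pre-irradiation replicate 3 and day 3 replicate 4, and 0.018 with the slide as a block in all 4 groups. NBN, a subunit of the MRE11-RAD50-NBN complex that binds broken ends, read 11.42, 10.86, 12.07 and 10.29 at day 3 against 12.68 to 13.65 (median 13.35) and fell by 2.11 ± 0.31. ATM fell by 1.61 ± 0.28 at its brightest probe, but its other probe differed by 0.99 in the opposite direction, so the gene's direction depends on the probe. XRCC2, a factor of homologous recombination, rose by 1.61 ± 0.28. The counts were 0 and 1 with the animal as a block or without day 3 replicate 1 or 4. Of 15 BCL2 family genes, 1 rose (6.67%, near the 5.95% of all genes) and 2 fell (13.3%, against 7.58% of all genes). Their median was 0.59 (0.34 against pre-irradiation replicate 5, 0.33 without day 3 replicate 1 and 0.042 with the slide as a block). The rise was in BID, which links death receptors to mitochondria, by 0.91 ± 0.20, a call that was lost with the animal as a block and without any one array other than day 3 replicate 2 or 7. The 2 that fell, BCL2L1 (by 2.95 ± 0.38) and BNIP3L (by 2.93 ± 0.28), are survival and mitophagy factors of maturing red cells and stood on the erythroid list too. The lymphocyte survival factor BCL2 differed by 0.90 ± 0.24 (adjusted p = 0.013 by limma) and MCL1 by 0.59 ± 0.27, neither of them called.

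B-cell transcripts fell in most of the genes tested. MS4A1, which encodes the surface antigen CD20, read 8.75, 7.91, 6.98 and 7.41 in day 3 replicates 1, 2, 4 and 7 and 10.92 to 12.17 (median 11.55) before irradiation. No day 3 array came within 2 log2 units of the lowest pre-irradiation array, and the fall was 3.76 ± 0.34 (adjusted p = 3.89e-05 by limma). CD79A, a signalling chain of the B-cell receptor, fell by 3.53 ± 0.28. CD79B, the partner of CD79A, fell by 4.15 ± 0.30 at its brightest probe, while its 2 other probes ranged from -3.69 to 0.44. VPREB3, a chaperone of immature B-cell receptors, was well above background on all 7 pre-irradiation arrays and on none at day 3, and was at least 32.4-fold lower (adjusted p = 7.92e-06 by limma). FCRL1, an Fc receptor-like coreceptor of mature B cells, fell by 5.14 ± 0.38 and was well above background on 2 of 4 day 3 arrays.

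Of 32 B-cell genes listed, 28 were tested and 21 fell, where 7.58% of all genes fell, and the median change was -2.65. The array medians were -2.19, -2.68, -3.07 and -2.88 at day 3 and -0.29 to 0.08 before. Against pre-irradiation replicate 5 the median was -2.74. With the animal as a block 18 of the 28 were called lower, and with the session as a block 5. Of 13 plasma-cell genes 3 fell (23.1%, 7.58% of all genes), with a median of -0.58 (-0.89 against pre-irradiation replicate 5 and -0.28 with the animal as a block): TNFRSF17, the survival receptor BCMA, by 2.87 ± 0.51, JCHAIN, which joins IgA and IgM into polymers, by 2.22 ± 0.45, and MZB1, an immunoglobulin chaperone, by 1.999 ± 0.33. The 3 other probes of MZB1 differed by 0.17 to 0.57, in the opposite direction. The 3 calls became 1 without day 3 replicate 1 or with the animal as a block, and none passed without day 3 replicate 4. With all arrays, 6 of the 13 were lower and 4 higher at an unadjusted p under 0.05, where 2696 and 2410 of all 10882 genes were.

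**Figure D3:**
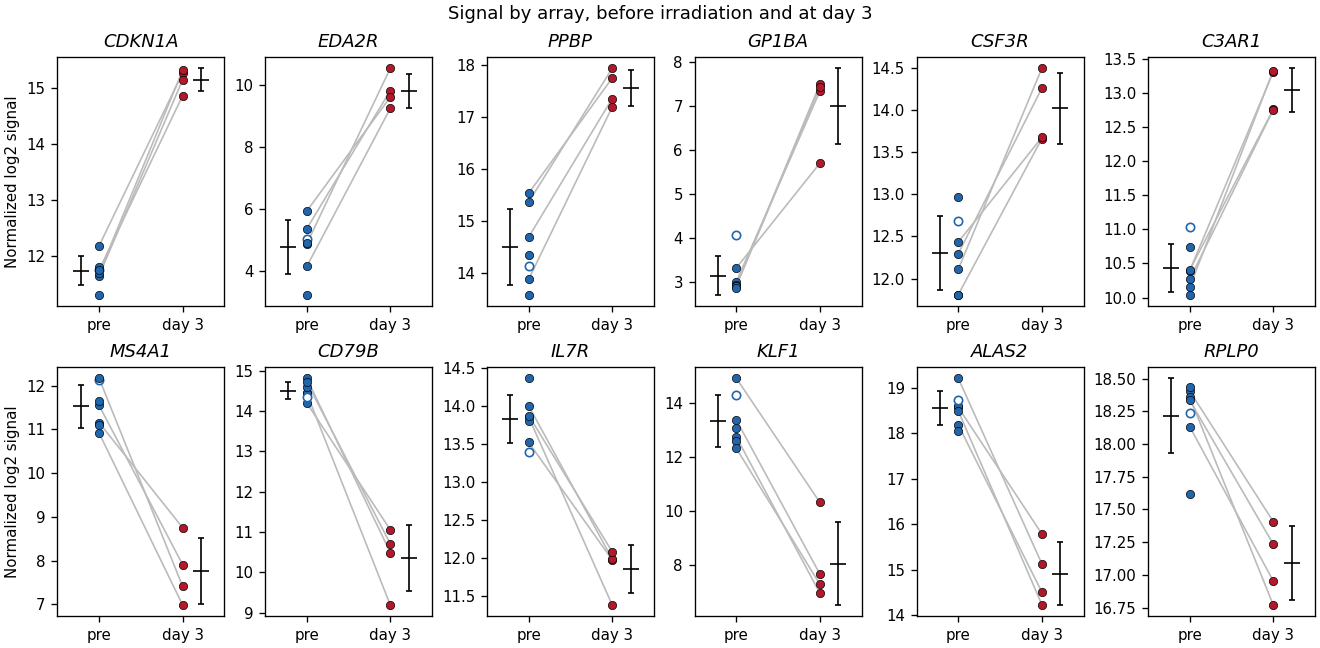
Normalized log2 signal (y axis) of 12 genes on the 7 pre-irradiation and 4 day 3 arrays; each point is an array, the open point is pre-irradiation replicate 5, grey lines join arrays of the same animal, and the bars beside them are means with SD. EDA2R runs from 9.24 to 10.53 at day 3 against at most 5.93 before, and MS4A1 from 6.98 to 8.75 against at least 10.92.

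Some genes of naive lymphocytes fell. Most genes of that list, of the T-cell receptor complex and of cytotoxic cells were not called, and the lists were not tested against each other. IL7R, the receptor chain that keeps naive and memory T cells alive, read 11.98, 11.99, 11.38 and 12.08 at day 3 against 13.39 to 14.36 (median 13.85) and fell by 1.97 ± 0.21 (adjusted p = 9.99e-05 by limma). CCR7, the homing receptor for lymph nodes, fell by 2.15 ± 0.36, LEF1 and TCF7, transcription factors of naive T cells, by 1.54 ± 0.32 and 1.42 ± 0.30, and BCL11A, a transcription factor of B cells and plasmacytoid dendritic cells, by 3.00 ± 0.15. These were the 5 called of 17 tested (29.4%, against 7.58% of all genes), whose median was -0.69 (-1.005 against pre-irradiation replicate 5 and -1.39 with the slide as a block in all 4 groups). The count was 2 with the animal as a block or without day 3 replicate 4, and 3 without any one of pre-irradiation replicates 2, 3, 4 and 6 or day 3 replicates 1 and 7.

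Among 29 T-cell receptor complex and signalling genes the median was -0.49, but -0.20 against pre-irradiation replicate 5 and -0.76 in males alone, and 3 fell, where 7.58% of all genes fell. ICOS, a costimulatory receptor with no value on pre-irradiation replicate 1, fell by 2.05 ± 0.31, CD8B, a chain of the CD8 coreceptor, by 1.71 ± 0.37, and GATA3, a T-cell transcription factor, by 0.72 ± 0.15. CD3G, a signalling chain of the receptor, read 12.78, 13.88, 12.83 and 14.00 at day 3 against 13.10 to 14.39 before, so the groups overlapped (-0.49 ± 0.32, adjusted p = 0.248 by limma). The kinase LCK differed by -0.42 ± 0.15. The 3 calls became 1 without pre-irradiation replicate 2, 3, 4 or 6 or day 3 replicate 1 or 4, and with the animal as a block none passed. Without the block 14 of the 29 were lower at an unadjusted p under 0.05, where 2696 of all 10882 genes were.

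Cytotoxic and NK-cell genes had a median of -0.01 over 35 tested (0.40 against pre-irradiation replicate 5, and between -0.18 without day 3 replicate 7 and 0.30 without day 3 replicate 1), and 1 rose and 1 fell (2.86% each, below the shares of all genes). GZMB, a granule protease, read 17.62, 18.55, 18.10 and 18.45 at day 3 and 17.07 to 18.32 before. PRF1, the pore-forming perforin, differed by 0.42 ± 0.27, and neither gene was called. GZMK, a granzyme of memory CD8 T cells, fell by 1.93 ± 0.41, whereas the chemokine receptor CX3CR1 of effector cells and monocytes rose by 1.78 ± 0.32. The call of GZMK was lost without pre-irradiation replicate 2, 4, 5, 6 or 7 or day 3 replicate 1, 4 or 7, and that of CX3CR1 without day 3 replicate 4 or 7 and with the animal as a block. Without pre-irradiation replicate 5, 2 genes of the list were higher. The median of the MHC class II genes was 0.26 but turned to -0.03 against pre-irradiation replicate 5, and it was 0.15, 0.52 and 0.17 without pre-irradiation replicate 7, day 3 replicate 2 and day 3 replicate 7. Of 16 tested, 2 fell (12.5%) and 1 rose (6.25%), where 7.58% and 5.95% of all genes did: the B-cell expressed chaperones MAMU-DOA and MAMU-DOB fell by 2.65 ± 0.32 and 1.96 ± 0.32, and the lysosomal protease LGMN rose by 1.80 ± 0.24. None of these 3 passed with the animal as a block (lowest adjusted p = 0.0054 by limma).

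Most erythroid genes tested fell. KLF1, the master transcription factor of red cell genes, read 6.97, 10.33, 7.30 and 7.68 in day 3 replicates 1, 2, 4 and 7 against 12.33 to 14.92 (median 13.10). Replicate 2 was the highest of the day 3 arrays and still below every pre-irradiation array, and the fall was 5.28 ± 0.65 (adjusted p = 0.000254 by limma). ALAS2, the first enzyme of heme synthesis in red cells, read 15.13, 15.79, 14.51 and 14.23 against 18.05 to 19.20 (median 18.56) and fell by 3.63 ± 0.30. SLC4A1, the anion exchanger band 3, fell by 4.93 ± 0.56, and was well above background on all 7 arrays before and on 1 of 4 at day 3. AHSP, the chaperone of alpha globin, fell by 3.51 ± 0.66 with day 3 replicate 2 the highest of the 4, at 13.78, within the pre-irradiation range.

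Of 66 erythroid genes listed, 54 were tested and 31 fell, where 7.58% of all genes fell, with a median of -2.50. The array medians were -2.60, -1.60, -2.94 and -2.81 at day 3 against -0.56 to 0.56 before. Against pre-irradiation replicate 5 the median was -2.97. With the animal as a block 26 were called lower, and with the session as a block 1. Large falls of single probes were also found in SOX6, ACSL6 and FERD3L. SOX6, a transcription factor of red cell maturation, was at least 27.1-fold lower, ACSL6, a fatty acid ligase of red cells, fell by 5.35 ± 0.42, and FERD3L, a helix-loop-helix factor of the nervous system by its usual description, fell by 5.70 ± 0.65. DNAI2, a dynein chain of motile cilia, fell by 5.01 ± 0.70.

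Most platelet genes tested rose. PPBP, the precursor of platelet basic protein and the chemokine NAP-2, read 17.94, 17.36, 17.75 and 17.19 at day 3 against 13.57 to 15.53 (median 14.33). All 4 day 3 values exceeded every earlier one by more than 1 log2 unit, and the rise was 3.06 ± 0.36 (adjusted p = 0.000206 by limma). PF4, the other abundant chemokine of alpha granules, read 18.20, 17.96, 18.06 and 17.48 against 14.72 to 16.29 (median 15.89) and rose by 2.38 ± 0.32. ITGA2B, the alpha chain of the fibrinogen receptor, rose by 3.14 ± 0.38, SELP, the adhesion receptor P-selectin, by 3.16 ± 0.49, and CLU, a chaperone stored in platelet granules, by 3.41 ± 0.46. GP1BA, the chain of the von Willebrand factor receptor that binds its ligand, was well above background on all 4 day 3 arrays, at 7.33, 7.49, 7.43 and 5.70, and on no pre-irradiation array, where it read 2.87 to 4.08. It was at least 9.79-fold higher (adjusted p = 3.89e-05 by limma).

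Of 76 platelet genes listed, 64 were tested, of which 49 rose and the other 15 were not called, where 5.95% of all genes rose, with a median change of 2.003. The array medians were 2.30, 2.23, 2.06 and 1.81 at day 3 against -0.64 to 0.30 before. Against pre-irradiation replicate 5 the median was 1.95, although with the session as a block none of the 64 passed, where 57 were higher at an unadjusted p under 0.05 without the block. With the animal as a block 31 were called higher. Of 16 stem and progenitor genes, with a median of 0.44 that was 0.13 against pre-irradiation replicate 5, 0.28 without day 3 replicate 2 and -0.061 with the slide as a block, 1 rose (6.25%, near the 5.95% of all genes): EGFL7, a secreted angiogenic factor, rose by 1.94 ± 0.27, while SPINK2, a protease inhibitor of stem cells, and MYB, a transcription factor of progenitors, differed by -1.16 ± 0.28 and -0.68 ± 0.24 and were not called. Without day 3 replicate 7, 2 genes of that list rose and 1 fell, and 1 fell without pre-irradiation replicate 6 or 7 or day 3 replicate 2.

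**Figure D4:**
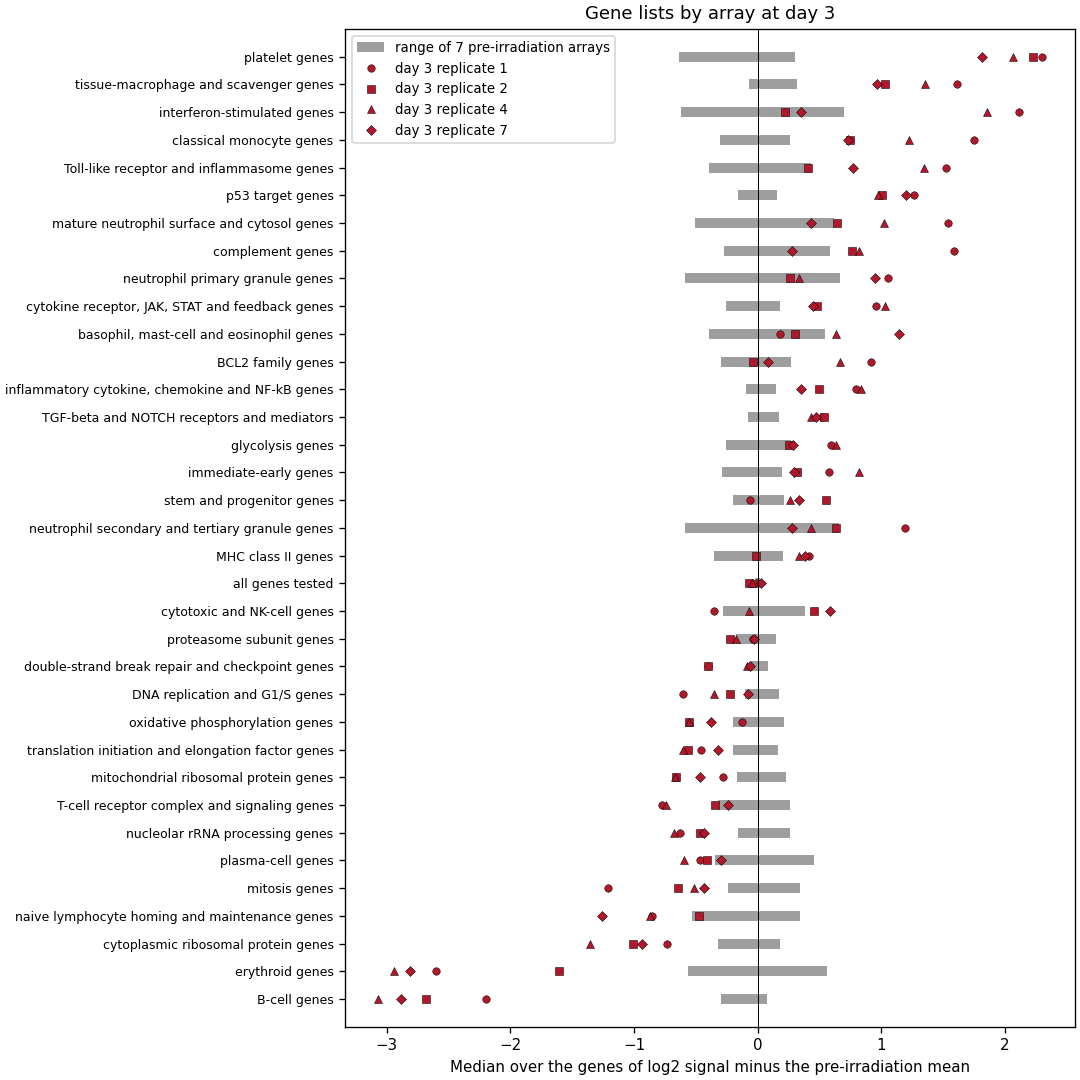
Median over the tested genes of each list of the log2 signal minus the pre-irradiation mean (x axis), for each of the 34 lists and for all genes tested (y axis); red symbols are the 4 day 3 arrays and the grey bar is the range of the 7 pre-irradiation arrays. Platelet genes lie between 1.81 and 2.30 at day 3, B-cell genes between -3.07 and -2.19, and interferon-stimulated genes spread from 0.22 to 2.11.

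Some monocyte, macrophage and neutrophil genes rose. MS4A7, a surface protein of monocytes and macrophages, read 15.22, 14.40, 15.78 and 16.08 at day 3 against 11.89 to 12.91 (median 12.80) and rose by 2.83 ± 0.33 (adjusted p = 0.000174 by limma). KLF4, a transcription factor of monocyte differentiation, rose by 2.32 ± 0.26. PLXDC2, a plexin-domain membrane protein, was above background on 3 of 4 day 3 arrays and on none before, and was at least 4.60-fold higher. The defining monocyte genes were less clear: CD14, the coreceptor for lipopolysaccharide, differed by 0.97 ± 0.34 (adjusted p = 0.0447 by limma) and by -0.50 and -0.012 with the slide and the session as a block in the fit of these 2 groups, VCAN, a matrix proteoglycan, by 1.05 ± 0.30, and lysozyme, LYZ, by -0.55 ± 0.29, none of them called. Of 29 classical monocyte genes tested, 10 rose (34.5%, against 5.95% of all genes), with a median of 1.05 and array medians of 1.75, 0.74, 1.23 and 0.73. The median against pre-irradiation replicate 5 was 0.72 and with the slide as a block 0.66, and the count of 10 fell to 6 without day 3 replicate 4 and to 3 with the animal as a block.

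The tissue-macrophage and scavenger list had 8 of 21 tested genes higher, where 5.95% of all genes rose, and a median of 1.31 (1.59 against pre-irradiation replicate 5 and 0.57 with normexp). CD5L, a secreted macrophage survival protein, read 10.52, 7.31, 8.75 and 6.73 at its most changed probe against 3.48 to 6.06 (median 3.52), and rose by 4.27 ± 0.69 there and by 3.80 ± 0.83 at its brighter probe. Before irradiation these probes were well above background on 1 and 3 of the 7 arrays, so both values rest mostly on dim signals. C1QC, a chain of the complement starter C1q, rose by 3.35 ± 0.56. MSR1, a scavenger receptor for modified lipoproteins, was above background on all 4 day 3 arrays and no earlier one and was at least 5.49-fold higher, while CD163, the haptoglobin-hemoglobin scavenger receptor, differed by 0.67 ± 0.23 without a call. Of the 21 genes, 7 were well above background on no pre-irradiation array and were tested only through later arrays, so the count and the median describe the genes that passed the filter and not the list as a whole. The count of 8 was 5 without any one of pre-irradiation replicates 1, 2, 3, 5 and 7, 4 without day 3 replicate 1, and 3 without day 3 replicate 4 or with the animal as a block.

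Mature neutrophil genes had 8 of 38 higher (21.1%, against 5.95% of all genes) and a median of 0.93. CSF3R, the receptor for granulocyte colony-stimulating factor, read 14.49, 13.66, 14.26 and 13.67 against 11.81 to 12.97 (median 12.30) and rose by 1.72 ± 0.26 (adjusted p = 0.000759 by limma, 0.0053 with the animal as a block). FCGR3, the low-affinity IgG receptor CD16, which NK cells and some monocytes carry and which is listed here as a neutrophil gene from human blood, rose by 2.84 ± 0.21, and FFAR2, a receptor for short-chain fatty acids, by 1.93 ± 0.31. The transporter SLC22A4 rose by 2.08 ± 0.45 and was well above background on 1 of 7 arrays before and all 4 at day 3. The calgranulins S100A8 and S100A9, among the most abundant neutrophil and monocyte transcripts, both differed by 0.93, with SEs of 0.39 and 0.30, and were not called. The count of 8 became 4 without day 3 replicate 1 or 4 and 2 with the animal as a block, and the median against pre-irradiation replicate 5 was 0.63, with the slide as a block 0.47 and in males alone 1.40.

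Granule genes, made in marrow precursors, did not move together. The median of the primary granule list was 0.81, but 0.19 against pre-irradiation replicate 5 and -0.085 with the session as a block in all 4 groups. Of its 13 genes 3 rose (23.1%, against 5.95% of all genes) and 1 fell (7.69%, near the 7.58% of all genes): GAA, a lysosomal glucosidase, and RNASE3, a cationic ribonuclease of eosinophils and neutrophils, rose by 1.61 ± 0.25 and 1.50 ± 0.33, while the protease CTSG was at least 4.23-fold lower. MPO, the myeloperoxidase, and ELANE, the elastase, differed by 1.36 ± 0.50 and -2.04 ± 0.52 and were not called. AZU1, azurocidin, differed by 1.04 ± 0.39. The count of rises was 1 without pre-irradiation replicate 1, 2, 3, 4 or 5 or day 3 replicate 1 or 7, the fall of CTSG was lost without pre-irradiation replicate 2 or day 3 replicate 2, 4 or 7, 2 genes fell without pre-irradiation replicate 3, and with the animal as a block CTSG was the single call. The median of the secondary and tertiary granule list was 0.39 but turned to -0.27 against pre-irradiation replicate 5, and it was 0.71 and 0.67 without day 3 replicates 4 and 7 and 0.93 in males alone. Of its 22 genes, 2 rose, MMP25, a membrane protease, among them (by 1.49 ± 0.30), and 2 fell, where 5.95% of all genes rose and 7.58% fell. The falls were in PADI2, an enzyme that converts arginine to citrulline, which fell by 2.09 ± 0.25, and CRISP3, a granule protein (at least 5.93-fold lower). The iron-binding proteins LTF and LCN2 differed by -1.33 ± 0.54 and 1.72 ± 0.59 and were not called. The 2 rises became 1 without pre-irradiation replicate 1, 2, 3, 4 or 7, neither was called without day 3 replicate 1, 2 or 7, and with the animal as a block none of the 22 passed. Without the block 10 of the 22 had an unadjusted p under 0.05, a share near that of all genes (2410 higher and 2696 lower of 10882). Of 20 genes of basophils, mast cells and eosinophils, with a median of 0.69 (0.38 against pre-irradiation replicate 5), 1 rose, a share near the 5.95% of all genes: SLC29A1, a nucleoside transporter, rose by 1.36 ± 0.25, but not with the animal as a block or without day 3 replicate 4, and without day 3 replicate 1 a gene of this list fell. FCER1A, the IgE receptor chain, read 5.81, 8.50, 8.39 and 8.14 against 8.84 to 10.20, and missed the threshold (-1.88 ± 0.46, adjusted p = 0.00853 by limma).

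Levels of interferon-stimulated genes at day 3 were higher in replicates 1 and 4 than in replicates 2 and 7, but the changes within animals did not follow this division. ISG15, a ubiquitin-like protein, read 15.62 and 15.74 in replicates 1 and 4 but 12.67 and 13.19 in replicates 2 and 7, against 11.31 to 14.55 (median 12.51) before. MX1, an antiviral GTPase, read 16.31 and 16.25 in replicates 1 and 4 and 14.18 and 14.67 in replicates 2 and 7, against 11.95 to 15.28 (median 13.87). For ISG15 and MX1, replicates 1 and 4 lay above all earlier arrays and replicates 2 and 7 within their range. IFIT3, an RNA-binding antiviral protein, had the same order, with 12.89 and 12.20 in replicates 1 and 4 and 9.84 and 10.65 in replicates 2 and 7. CXCL10, a chemokine induced by interferon, read 11.46, 9.23, 13.22 and 10.82 in replicates 1, 2, 4 and 7 against 6.72 to 9.34 on 6 earlier arrays (its spot was flagged on pre-irradiation replicate 5), and differed by 3.27 ± 0.72 without passing (adjusted p = 0.00579 by limma). Of 42 such genes limma called 0, though 23 had an unadjusted p under 0.05, all of them higher. Their median change was 1.14 (1.68 against pre-irradiation replicate 5, where CXCL10 has no value), and the array medians were 2.11, 0.22, 1.85 and 0.35 against -0.62 to 0.70 before. Within each animal the median difference was 2.19, 0.94, 1.01 and -0.56 in replicates 1, 2, 4 and 7, so replicate 7 was lower at day 3 than before. Without day 3 replicate 2 the count was 3.

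**Figure D5:**
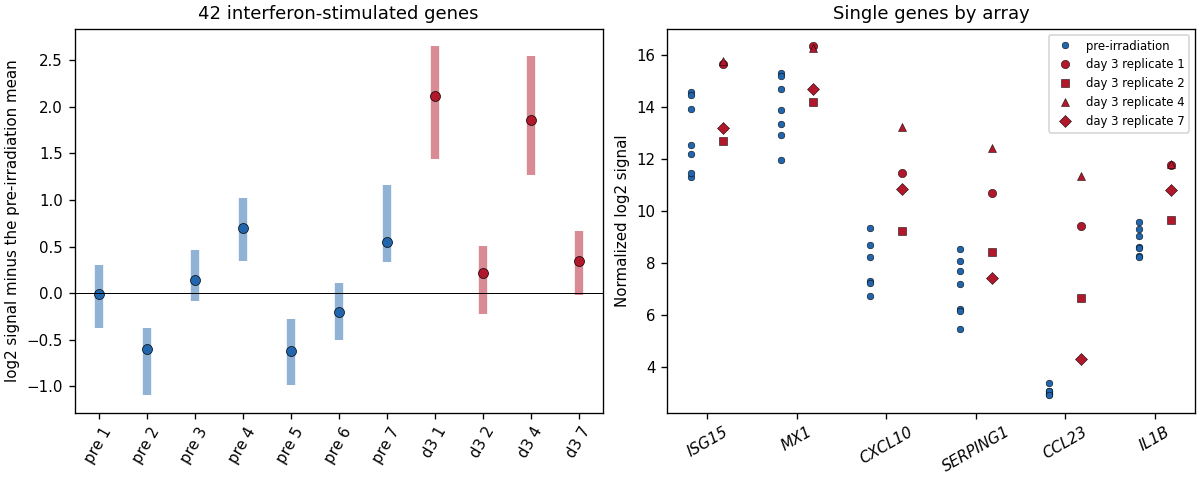
Left, log2 signal minus the pre-irradiation mean (y axis) of the 42 interferon-stimulated genes on each of the 11 arrays (x axis), with the point at the median and the bar between the quartiles over the genes of each array; replicates 1 and 4 at day 3 have medians of 2.11 and 1.85, and replicates 2 and 7 of 0.22 and 0.35. Right, normalized log2 signal of 6 genes on each array by group.

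Some inflammatory and sensing genes rose. IL1B, the proinflammatory cytokine interleukin 1 beta, read 11.74, 9.64, 11.81 and 10.78 at day 3 against 8.22 to 9.55 (median 8.60) and rose by 2.21 ± 0.41 (adjusted p = 0.0021 by limma, 0.0072 with the animal as a block). TNF rose by 1.12 ± 0.22. CCL23, a chemokine of myeloid cells, read 9.39, 6.66, 11.34 and 4.28 against at most 3.37, was above background on 3 of 4 day 3 arrays and on none before, and was at least 18.7-fold higher. Its day 3 arrays thus lay far apart. Of 38 genes of this list 8 rose (21.1%, against 5.95% of all genes), the platelet chemokine PF4 among them, and 1 fell (2.63%, below the 7.58% of all genes), with a median of 0.57 (0.61 against pre-irradiation replicate 5), and the 8 became 4 without day 3 replicate 1 and 3 without day 3 replicate 4 or with the animal as a block. Of 32 Toll-like receptor and inflammasome genes, with a median of 1.04 (0.93 against pre-irradiation replicate 5), 4 rose (12.5%, against 5.95% of all genes), among them NLRP1, a sensor (by 1.28 ± 0.23), and GSDMD, the pore former of pyroptosis (by 1.22 ± 0.20). TLR9, the DNA sensor of B cells and plasmacytoid dendritic cells, fell by 2.0 ± 0.39, a call lost without pre-irradiation replicate 3 or 7 or day 3 replicate 2, 4 or 7, while 2 genes fell without day 3 replicate 1. TLR2, TLR4 and NLRP3 differed by 1.04 ± 0.33, 0.75 ± 0.39 and 0.92 ± 0.31 without calls. The 4 rises became 2 without pre-irradiation replicate 1, 2 or 3 and 1 with the animal as a block. Without day 3 replicate 1 or 4 none passed, though 22 of the 32 had an unadjusted p under 0.05 on the higher side in the full set.

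Immediate-early genes had 7 of 32 higher (21.9%, against 5.95% of all genes) and 3 lower (9.38%, near the 7.58% of all genes), and a median of 0.50 (0.40 against pre-irradiation replicate 5). ATF3, a stress-induced transcription factor, rose by 2.53 ± 0.34 at its brightest probe and differed by 1.22 at the other, while MYC, the growth-promoting transcription factor, read 9.73, 9.25, 9.89 and 9.82 against 11.22 to 13.47 (median 12.16) and fell by 2.56 ± 0.37 (adjusted p = 0.00061 by limma, 0.0068 with the animal as a block). With the animal as a block 2 were higher and none lower, and the 3 falls became 1 without day 3 replicate 1 or 2. Of 41 cytokine receptor, JAK, STAT and feedback genes, with a median of 0.78 (0.65 against pre-irradiation replicate 5), 6 rose (14.6%, against 5.95% of all genes), among them STAT3, the transducer of interleukin 6 signals, by 1.02 ± 0.19, the kinase TYK2 by 1.06 ± 0.16 and the feedback inhibitor CISH by 1.63 ± 0.20. The 6 became 3 without day 3 replicate 1 or 4, and with the animal as a block none passed, where 23 had an unadjusted p under 0.05 on the higher side without it.

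Complement genes had 7 of 20 higher and 2 lower, where 5.95% and 7.58% of all genes were, with a median of 0.90 but 0.41 against pre-irradiation replicate 5, 0.18 with the slide as a block and 1.35 in males alone. Of these genes, CLU and C1QC are also on the platelet and macrophage lists, and CR2, a complement receptor of B cells named after its values were seen, is also on the B-cell list. C3AR1, the receptor for the fragment C3a, read 13.31, 12.76, 13.33 and 12.75 against 10.04 to 11.04 (median 10.40) and rose by 2.60 ± 0.22 (adjusted p = 2.21e-05 by limma). The terminal component C5 was at least 8.90-fold lower, and SERPING1, the C1 inhibitor and an interferon-stimulated gene, ranged from 7.41 to 12.42 at day 3 and was not called (2.70 ± 0.87). The 7 rises became 3 with the animal as a block or without day 3 replicate 1 or 4, and the 2 falls became 1 without day 3 replicate 1, 2 or 4. Of 36 TGF-beta and NOTCH genes, with a median of 0.54 (0.50 against pre-irradiation replicate 5 and 0.31 with normexp), 5 rose (13.9%, against 5.95% of all genes), among them LTBP1, which holds latent TGF-beta and is also on the platelet list, by 2.01 ± 0.33, NCSTN, a subunit of gamma-secretase, by 1.19 ± 0.20, and HES5, a NOTCH target, by 2.25 ± 0.49. TGFB1 and SMAD3 differed by 0.74 ± 0.20 and -0.53 ± 0.17 and were not called. The 5 became 3 without pre-irradiation replicate 2 or day 3 replicate 1, or with the animal as a block.

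Part of the genes of protein synthesis fell. RPS21, of the small ribosomal subunit, read 15.13, 15.08, 14.03 and 14.78 at day 3 against 16.10 to 17.34 (median 16.29) and fell by 1.72 ± 0.27 (adjusted p = 0.000925 by limma, 0.0078 with the animal as a block). RPS7 of the same subunit fell by 1.70 ± 0.32, RPL5 of the large subunit by 1.53 ± 0.23, and RPLP0, of its stalk, by 1.12 ± 0.19. RPS3 read 18.41, 18.11, 17.84 and 17.82 against 18.41 to 18.88 and differed by -0.63 ± 0.16 without passing (adjusted p = 0.0115 by limma). Ribosomal protein genes have many processed pseudogenes of near-identical sequence, and the signal of a probe can include them.

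Of 79 cytoplasmic ribosomal protein genes 71 were tested and 41 fell (57.7%, against 7.58% of all genes), with a median of -1.06 and array medians of -0.74, -1.01, -1.36 and -0.93 against -0.32 to 0.18. Against pre-irradiation replicate 5 the median was -1.08. The count of 41 fell to 27 without day 3 replicate 2 and 17 without day 3 replicate 4, and with the animal or the session as a block none of the 71 passed, where 68 had an unadjusted p under 0.05 on the lower side without a block. Of 56 mitochondrial ribosomal protein genes 12 fell (21.4%), MRPL15, MRPL48 and MRPS33 by 1.35 ± 0.26, 1.29 ± 0.20 and 1.19 ± 0.18, and the median was -0.48 (-0.50 against pre-irradiation replicate 5 and -0.31 without the filter on dim probes). That count was 3 without day 3 replicate 4, 6 without day 3 replicate 2, 7 without day 3 replicate 7, and with the animal as a block none passed.

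Of 45 translation factor genes 14 fell (31.1%, against 7.58% of all genes), with a median of -0.46 (-0.46 against pre-irradiation replicate 5, -0.74 in the authors' values and -0.29 without the filter on dim probes). EEF2, which moves the ribosome along the transcript, read 14.03, 13.49, 13.25 and 13.62 against 15.38 to 16.14 (median 15.81) and fell by 2.20 ± 0.20 (adjusted p = 3.21e-05 by limma). EEF1B2, an exchange factor of elongation, and BTF3, of the nascent chain complex, fell by 1.53 ± 0.28 and 1.39 ± 0.19. EEF1A1, the most abundant elongation factor, differed by -0.55 ± 0.19 and was not called. The count of 14 was 9 without pre-irradiation replicate 2 or 4, 7, 6, 4 and 8 without day 3 replicates 1, 2, 4 and 7, and 2 with the animal as a block. Of 53 nucleolar genes 10 fell (18.9%), with a median of -0.54 (-0.44 against pre-irradiation replicate 5 and -0.85 in the authors' values). PES1, of large subunit assembly, fell by 2.20 ± 0.16, POLR1E, of RNA polymerase I, fell by 2.41 ± 0.40, PNO1, of small subunit assembly, fell by 1.38 ± 0.26, and the methyltransferase FBL by 1.17 ± 0.18. The 10 became 5 without day 3 replicate 1, 4 without day 3 replicate 4 and 1 with the animal as a block.

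Of 64 oxidative phosphorylation genes 6 fell, close to the 7.58% of all genes that fell, with a median of -0.43 (-0.35 against pre-irradiation replicate 5 and -0.27 without the filter on dim probes). Among them COX7B, of cytochrome oxidase, fell by 1.96 ± 0.30, and NDUFAB1 and NDUFB6, of complex I, fell by 1.31 ± 0.28 and 1.14 ± 0.20. The count of 6 was 3 without pre-irradiation replicate 1, 2, 3, 4 or 7, 2 without day 3 replicate 2, and 1 without day 3 replicate 4 or with the animal as a block. Proteasome genes had a median of -0.05 over 38 tested (-0.03 against pre-irradiation replicate 5 and 0.12 without the filter on dim probes), of which 2 fell (5.26%, below the 7.58% of all genes): PSMD9, an assembly chaperone, and PSMF1, an inhibitor, fell by 1.70 ± 0.26 and 0.97 ± 0.20. These 2 became 1 without pre-irradiation replicate 2, 3, 4 or 6 or day 3 replicate 1, 4 or 7, neither passed with the animal as a block, and without day 3 replicate 2 a proteasome gene rose. Of 24 glycolysis genes 5 rose (20.8%) and 3 fell (12.5%), where 5.95% and 7.58% of all genes did, with a median of 0.51 (0.14 against pre-irradiation replicate 5, 0.09 with the slide as a block and 0.86 in the authors' values). HK3, the hexokinase of myeloid cells, read 12.78, 11.91, 12.08 and 12.10 against 9.09 to 10.63 (median 9.73) and rose by 2.37 ± 0.30 (adjusted p = 0.0003 by limma). The lactate transporter SLC16A1, abundant in red cell precursors, fell by 3.70 ± 0.54 and the enolase ENO2 by 1.55 ± 0.33. PFKFB3, which makes the activator of phosphofructokinase, differed by 1.42 ± 0.33 and was not called. The 5 rises were 3 without pre-irradiation replicate 2 or day 3 replicate 2 or 7, 2 without pre-irradiation replicate 1, 3, 4 or 7, and 1 without day 3 replicate 1 or 4, and with the animal as a block 2 rose and none fell.

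TYMS, thymidylate synthase, which makes the DNA precursor dTMP, read 11.92, 12.37, 11.67 and 12.30 at day 3 against 9.13 to 9.78 (median 9.35). All 4 irradiated values lay well above the earlier ones, the rise was 2.63 ± 0.19 (adjusted p = 8.24e-06 by limma), and the 3 other probes differed by 2.38 to 2.87 in the same direction. Of 61 DNA replication and G1/S genes 3 rose and 7 fell, where 5.95% of all genes rose and 7.58% fell, with a median of -0.38 that was -0.16 against pre-irradiation replicate 5 and turned to 0.07 with the slide as a block in all 4 groups. E2F5, a repressive E2F factor, was at least 6.61-fold lower, TFDP2, the E2F partner that is also on the erythroid list, fell by 3.88 ± 0.54, and CCNE1, the cyclin that starts S phase, fell by 1.03 ± 0.19. The 7 falls were 4 without pre-irradiation replicate 4 or 7 or day 3 replicate 1 and 3 without day 3 replicate 2, 4 or 7, the 3 rises were 1 without day 3 replicate 1 or 4, and with the animal as a block 1 rose and 3 fell.

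Of 59 mitosis genes 11 fell (18.6%, against 7.58% of all genes), with a median of -0.66 (-0.94 against pre-irradiation replicate 5 and -0.25 with normexp). CDK1, the kinase that drives entry into mitosis, read 6.38, 7.27, 6.94 and 7.55 against 7.92 to 9.28 (median 8.65) and fell by 1.55 ± 0.31 (adjusted p = 0.00285 by limma, 0.007 with the animal as a block). Its partner CCNB1 fell by 0.71 ± 0.15, the spindle protein DLGAP5 by 1.71 ± 0.29, and the centrosomal kinase NEK2 was at least 5.30-fold lower. TOP2A, a topoisomerase, differed by -0.66 ± 0.28 and was not called. The count of 11 was 6 without pre-irradiation replicate 2 or 4, 5 without pre-irradiation replicate 3 or day 3 replicate 4, 7 without pre-irradiation replicate 7 or day 3 replicate 2, 4 without day 3 replicate 1, and 1 with the animal as a block.

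Other large rises of single probes were in genes outside these lists. P3H2, a collagen prolyl hydroxylase, and SDC3, a heparan sulfate proteoglycan, were well above background on all 4 day 3 arrays and on none before, and were at least 15.96-fold and 11.9-fold higher. PLD4, an endosomal nuclease of myeloid and plasmacytoid dendritic cells, rose by 3.61 ± 0.26, but its other probe differed by 0.22, and MYL10, a myosin light chain, rose by 3.50 ± 0.51, with 0.63 at its other probe.

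Few probes were called between day 3 and the next sampled day. Between day 3 and day 5, 5 probes were called, all higher at day 3 (2726 at an unadjusted p under 0.05), and between day 3 and day 7, 343 were, 257 higher and 86 lower at day 3 (8868 at that p). Neither fit took the animal into account, though the animals measured at day 3 were also measured at day 5 and day 7. The day 7 arrays lay almost all in the first scan session, so the contrast with day 7 and the session cannot be told apart for most of them. Their spike-in values, 16.92 to 17.55, all lay below those of day 3, so that difference cannot be told apart for any of them. All 6 day 5 arrays shared the second session with day 3 and had spike-in values of 18.79 to 19.29. The part of session and spike-in in these counts was not tested. Among the called probes, CDKN1A was higher at day 3 than at day 7 by 2.40 log2 units, PPBP by 3.02 and PF4 by 2.98, while the difference in DLGAP5 was -3.21.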

How the data were processed

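Intensities were deposited as Agilent Feature Extraction scanner output, background-corrected by that software per the file headers (version 12.0.2.2 there, 10.7 per the labels). The authors' log2 values, normalized by them to the median array in BRB-ArrayTools 4.6.0, were used as an alternative. Their direction and scale follow the scanner values (r at least 0.99997 over 18497 matched probes), with array medians of 7.37 to 7.70, so they are not centred by gene. The labels name a rhesus array and the methods a human one, and the probe annotation in the files is rhesus.

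Here log2 of the processed intensity was shifted to the median array (pre-irradiation replicate 2) over 43603 probes that are not controls. Of these, 23054 carry a symbol in the files, 898 were named by accession through RefSeq gene tables, 315 symbols were updated, and 19651 stayed unnamed, leaving 15040 symbols. Probes that passed the background test on 4 or more of the 24 arrays (27138, of which 27132 could be tested) were fitted with limma 3.58.1 in R 4.3.3 (lmFit, eBayes), 4 day 3 against 7 pre-irradiation arrays without a block, with outlier-flagged spots left out and Benjamini-Hochberg adjustment at 0.005. Where no array of the dimmer group was well above background, a lower bound on the fold is given, taken per array against the dim probe or, if brighter, the faintest signal that passed the background test. Probes and genes named are the 10 largest rises and falls, the 3 largest called changes of each of 34 lists, and anchor genes of the lists, some of which are not reported here. The members, lists and tests were chosen with earlier results of these data known. The numbers 1, 2, 4 and 7 pair the animals: deviations of same-numbered arrays from their group means correlated at 0.134 to 0.414, other pairs at -0.298 to 0.120 (median -0.0524). The fit was tested on simulated data. The number of arrays limits the precision, and the alternatives are given under the closing limits.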

Additional observations from a re-analysis of the deposited data

Results flagged for a closer look

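In 306 checks of a named gene's or the spike-in's values within a group, 7.19% found the highest or lowest array far from the others, where chance gives about 1 in 20. At day 3 these were, on the log2 scale, GP1BA at 5.70 in replicate 7 (low), DNAI2 at 6.53 in replicate 1 (high), BAX at 11.24 in replicate 2 (low), IL7R at 11.38 in replicate 4 (low), SLC22A4 at 8.15 in replicate 1 (high), SLC29A1 at 10.69 in replicate 7 (high), FCER1A at 5.81 in replicate 1 (low), SPINK2 at 11.51 in replicate 7 (high), LTBP1 at 8.86 in replicate 4 (low) and PCNA at 14.10 in replicate 7 (high). Before irradiation they were CD5L at 6.06 in replicate 6 (high), GP1BA at 4.08 in replicate 5 (high), SOX6 at 10.48 in replicate 1 (high), BNIP3L at 18.36 in replicate 1 (high), ICOS at 9.09 in replicate 5 (low), MSR1 at 3.79 in replicate 7 (high), ITGA2B at 9.49 in replicate 3 (low), CCL23 at 3.37 in replicate 7 (high), NCSTN at 13.65 in replicate 6 (high), RPS21 at 17.34 in replicate 2 (high) and RPLP0 at 17.62 in replicate 6 (low). GP1BA, MSR1 and CCL23 were not well above background on any pre-irradiation array.

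The E1A spike-in control spots, outside the main measurement, read 8.20 in pre-irradiation replicate 1, far below the other 6 arrays of its group. The lowest day 3 array read 18.96 on these spots, above every pre-irradiation array.

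Differences between day 3 and a later day passed limma's adjusted p of 0.005 for 14 of 304 comparisons of named genes. Against day 7, day 3 was higher by 3.66 log2 units in MYL10, 2.40 in CDKN1A, 2.35 in XRCC2, 2.20 in MSR1, 3.02 in PPBP, 2.98 in PF4, 2.47 in ITGA2B, 2.20 in EGFL7 and 2.15 in LTBP1. The day 3 minus day 7 difference was -2.10 in ICOS, -1.37 in PNO1, -3.21 in DLGAP5 and -3.69 in NEK2, which was well above background on no day 3 array, so that its value is not an exact difference. Against day 5, day 3 was higher by 1.99 in PPBP. Most day 7 arrays were scanned in the first session and all day 3 arrays in the second, and the spike-in read lower on every day 7 array than on any day 3 array. The part of the session and of the spike-in difference in these values was not tested.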

How the results depend on the processing

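Of 3651 probes called, the count moved by more than 1.5 times with normexp background correction (165, where 4736 had an unadjusted p under 0.05), the animal as a fixed block (751, while a random block gave 4734), the slide as a block in these groups (0, where 5409 had an unadjusted p under 0.05) and in all 4 groups (443), the session as a block in these groups (37) and in all 4 groups (814), males alone (1601) and an adjusted p of 0.05 as the threshold (9696). Leaving out 1 array gave 1496 to 3489, the lowest without day 3 replicate 4. Scaling to the 75th percentile put 46.6% of calls on the higher side instead of 40.4%, and no filter on dim probes 65.1%, with the median of all genes then at 0.16 (0.14 in the authors' values). The p53 list median of 1.03 was 0.81 with normexp, 1.44 in the authors' values, 1.19 without the filter, 1.26 and 1.23 with the slide as a block in these and all 4 groups, and 1.24 with the session as a block in all 4. The B-cell median of -2.65 was -1.42 with normexp and -3.06 with the slide as a block. The erythroid median of -2.50 was -1.69 with normexp, -3.21 and -3.46 with the slide as a block in these and all 4 groups, and -3.16 with the session in all 4. The platelet median of 2.003 was 1.40 with normexp and 1.73 with the slide in all 4 groups. The cause of these shifts was not tested. CD14, not called, turned to -0.50 and -0.11 with the slide as a block in these and all 4 groups and to -0.012 with the session as a block. No called gene named here changed sign under those of the 30 alternatives that gave it a value. Of 116 called results, 61 missed the threshold with the animal as a fixed block, none with it as a random block, 89 with normexp, and 110 and 116 with the session and the slide as a block in these groups.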
